A study of Homo sapiens with 4 samples.

Results

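The amino acid solute carriers are the membrane proteins through which cells import, export and exchange amino acids. They were defined here by symbol, as the protein-coding genes of GENCODE release 29 that begin with SLC1A, SLC3A, SLC6A, SLC7A, SLC36A, SLC38A or SLC43A. This rule gave 60 of 19951 protein-coding genes: 7 in SLC1A, 2 in SLC3A, 19 in SLC6A, 14 in SLC7A, 4 in SLC36A, 11 in SLC38A and 3 in SLC43A. A prefix is not a function. SLC7A6OS carries one only because it lies opposite SLC7A6, and some SLC6A and SLC43A members move monoamines, creatine, betaine or nucleobases in place of amino acids.

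The study asked which transcripts differ after sonodynamic therapy (SDT) in HepG2 and Huh7, established human liver cancer lines. SDT uses sound waves to excite a drug that cells have taken up, here hematoporphyrin monomethyl ether (HMME) carried in nanobubbles together with lonidamine (LND), a drug that acts on mitochondria. Ribosome-depleted total RNA came from 4 groups with 1 library each, namely HepG2 cells without (group A) and with treatment (group B) and Huh7 cells without (group C) and with treatment (group D). The labels give no dose, no time and no group with ultrasound or nanobubbles alone, so the parts of the treatment cannot be told apart.

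The tables used here name the genes that the authors called differentially expressed in each comparison, B vs. A and D vs. C, and were the source of every count below. A gene is "listed" when its identifier stands under any Gene Ontology (GO) term of a comparison, which requires an adjusted p-value under 0.05 in the authors' test and a GO annotation. The tables have no level, no fold change and no sign for a gene, and read depth was not used here. A listed gene may thus have gone up or down. A gene that is not listed may have been stable, too low to be called, or without annotation. With 1 library per group no call has a replicate check. In bulk RNA, fewer cells with a transcript and less of that transcript per cell cannot be told apart. Without levels, the lines could not be checked against liver markers.

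Amino acid carriers work by a few mechanisms. Sodium-coupled carriers of SLC1A, SLC6A and SLC38A concentrate their substrates in the cell. SLC7A light chains mostly exchange one amino acid for another and reach the plasma membrane bound to an SLC3A heavy chain. SLC36A carriers use protons, and SLC43A carriers let amino acids run down their gradient. In liver, such carriers supply amino acids for urea synthesis, plasma proteins and glutathione, and in tumour cells glutamine, leucine and cystine uptake is a well-known trait.

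In group B vs. A, 17 of the 60 members were listed (28.3%), beside 23.9% of all protein-coding genes. In group D vs. C, 25 were listed (41.7%), beside 21.9% of all protein-coding genes. The HepG2 share was near the background and the Huh7 share was above it. The share of the other 326 SLC genes was 30.1% in HepG2 and 31.9% in Huh7. Among ABC transporters it was 26.7% and 42.2%, and among the bile acid and organic ion carriers (SLC10A, SLC22A and SLCO, part of those 326) 33.3% and 40.5%, so a Huh7 share of this size also occurred in other transporter groups. These lists are complete counts of genes and carry no sampling interval, and no test of the shares was made.

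Of the 17 members listed in HepG2, 13 were also listed in Huh7 (76.5%), whereas 47.7% of all protein-coding genes listed in HepG2 were. The 13 shared members made up 52.0% of the Huh7 members, against 52.2% for all listed protein-coding genes. Other transporters also shared more of their HepG2 list than all genes did, with 56.1% for the other SLC genes, 71.4% for the bile acid and organic ion carriers and 66.7% for the ABC transporters. As a share of all 60 members, the 13 shared members were 21.7%, beside a background of 11.4%. Listed in both lines were also 10 of 42 bile acid and organic ion carriers and 8 of 45 ABC transporters. A further 4 members were listed only in HepG2 and 12 only in Huh7. The remaining 31 members (51.7%) were listed in neither line, beside 65.7% of all protein-coding genes, 21 of 42 bile acid and organic ion carriers and 22 of 45 ABC transporters.

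**Figure D1:**
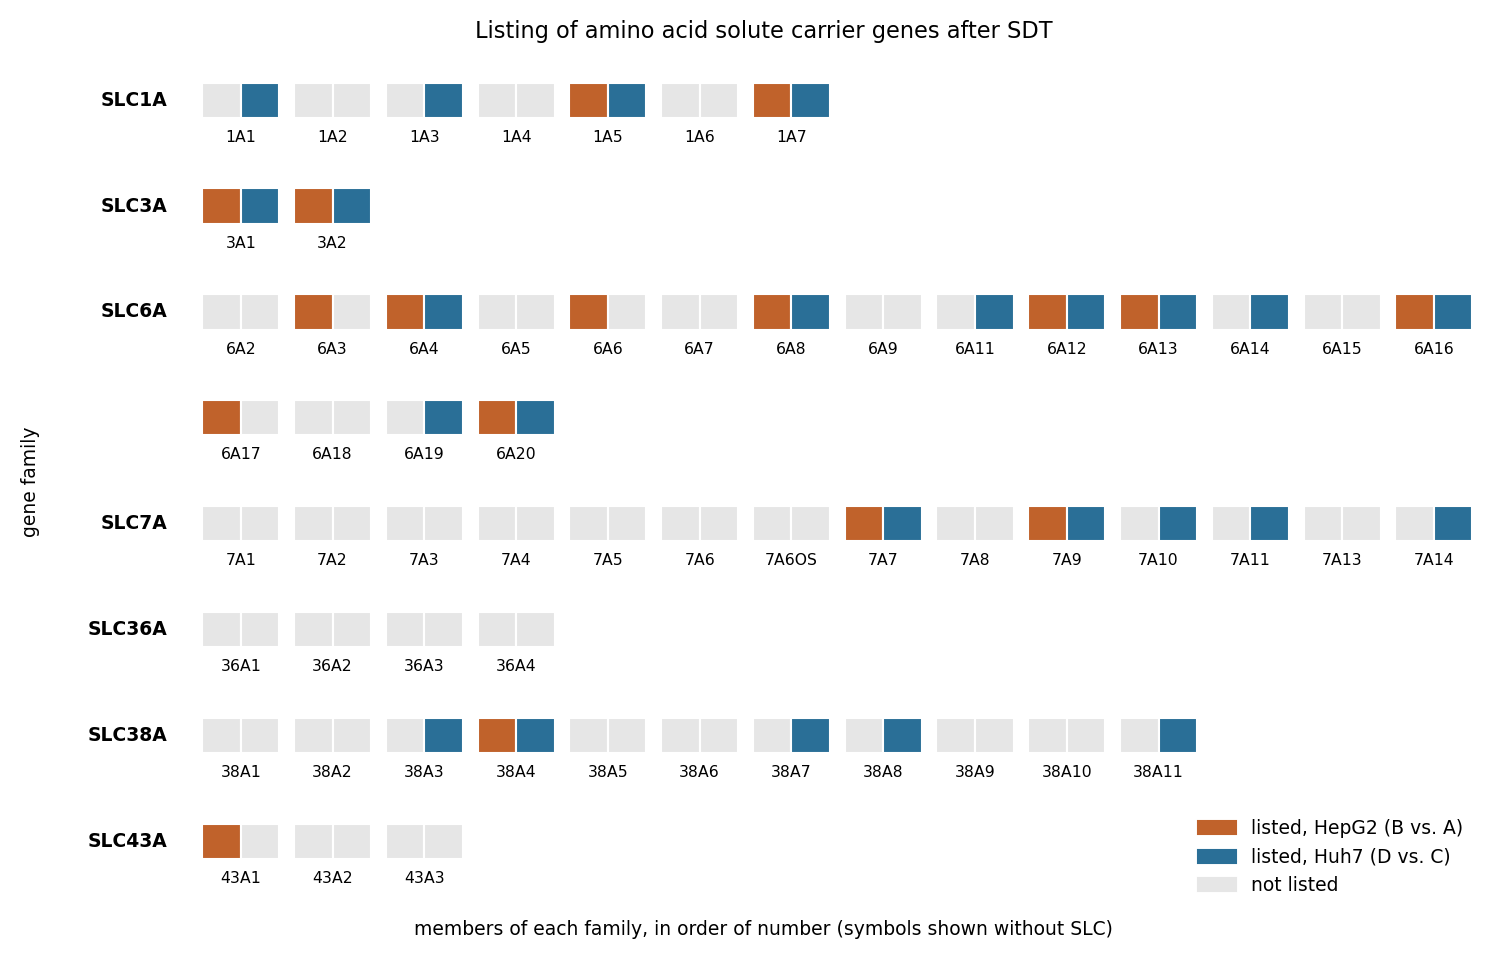
Listing of the member genes named in the text, ordered by family (rows) and by number within the family (columns, symbols without SLC). The left square of each gene is HepG2 (B vs. A) and the right square Huh7 (D vs. C), coloured when listed; 13 genes have both squares coloured, 16 have one, and the whole SLC36A row is grey.

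The heavy chains, a family of only 2 genes, were the one family listed in full. Of all protein-coding genes, 11.4% were listed in both lines. SLC3A1 (ENSG00000138079), the partner of cystine and dibasic amino acid exchange in kidney and gut, and SLC3A2 (ENSG00000168003), the CD98 heavy chain of most other exchangers, were listed in HepG2 and in Huh7. SLC3A1 needs care, since 25.4% of the 75-base stretches in its transcripts also occur in AC013717.1, an annotated locus that overlaps it on the same strand. In SLC3A2 all such stretches were unique.

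Their light chains were listed less evenly. Of the 6 partners of SLC3A2, only SLC7A7 (ENSG00000155465), which exports cationic amino acids, was listed in both lines. SLC7A11 (ENSG00000151012), which brings in cystine against glutamate and so feeds glutathione synthesis, was listed only in Huh7. So was SLC7A10 (ENSG00000130876), an exchanger of small neutral amino acids. SLC7A5 and SLC7A8, the exchangers of large neutral amino acids such as leucine, and SLC7A6 were listed in neither. Of the 2 partners of SLC3A1, SLC7A9 (ENSG00000021488), which forms the renal cystine exchanger with it, was listed in both lines, and SLC7A13 in neither. The heavy and light chain of this renal exchanger were thus listed together in each line, whereas SLC3A2 and its cystine-importing light chain SLC7A11 were listed together in Huh7 alone. Whether the lines differ in SLC7A11 was not tested, since a missing call is not a measured absence of change.

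The uptake carriers for arginine and lysine, SLC7A1, SLC7A2 and SLC7A3, were listed in neither line, nor was SLC7A4, for which no transport is established. SLC7A14 (ENSG00000013293), a relative found in lysosomes, was listed only in Huh7. SLC7A6OS, the member that is no carrier, was listed in neither. SLC7A as a whole had 2 of 14 genes listed in HepG2 (14.3%) and 5 of 14 in Huh7 (35.7%). The shares of all protein-coding genes were 23.9% and 21.9%.

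In SLC1A, 2 of 7 genes were listed in HepG2 (28.6%) and 4 of 7 in Huh7 (57.1%), beside 23.9% and 21.9% of all protein-coding genes. SLC1A5 (ENSG00000105281), the sodium-coupled exchanger known for glutamine uptake in tumour cells, was listed in both lines, while SLC1A4, its paralog for alanine, serine and cysteine, was in neither. Among the 5 high-affinity glutamate and aspartate carriers, SLC1A7 (ENSG00000162383), known from the retina, was listed in both. SLC1A1 (ENSG00000106688), the widely expressed glutamate and cysteine carrier of epithelia, and SLC1A3 (ENSG00000079215), the astrocyte carrier, were listed only in Huh7. SLC1A2 and SLC1A6, carriers of brain, were listed in neither.

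In SLC38A, 1 of 11 genes was listed in HepG2 (9.09%) and 5 of 11 in Huh7 (45.5%), beside 23.9% and 21.9% of all protein-coding genes. Other SLC families were alike, with the same counts in SLC9A, and 1 of 9 in HepG2 and 4 of 9 in Huh7 in SLC12A. The SLC38A gene common to both lines was SLC38A4 (ENSG00000139209), the system A carrier of alanine that is typical of liver. SLC38A1 and SLC38A2, the system A carriers of most other cells, were listed in neither, although SLC38A2 lies next to SLC38A4 in the genome. Listed only in Huh7 were SLC38A3 (ENSG00000188338), the system N glutamine carrier of hepatocytes, SLC38A7 (ENSG00000103042), which releases glutamine from lysosomes, and the less studied SLC38A8 (ENSG00000166558) and SLC38A11 (ENSG00000169507). The system N carrier SLC38A5, the lysosomal arginine sensor SLC38A9, and SLC38A6 and SLC38A10 were listed in neither.

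The proton-coupled carriers SLC36A1 to SLC36A4 were the one family without a listed gene, 0 of 4 in each line. Of all protein-coding genes, 65.7% were listed in neither line. In SLC43A, SLC43A1 (ENSG00000149150), a facilitator of branched-chain amino acids first described in liver cancer cells, was listed only in HepG2. SLC43A2, its close relative, and SLC43A3, which moves purine nucleobases, were listed in neither. For SLC43A3, 21.8% of the 75-base stretches also occur in AP000781.2.

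**Figure D2:**
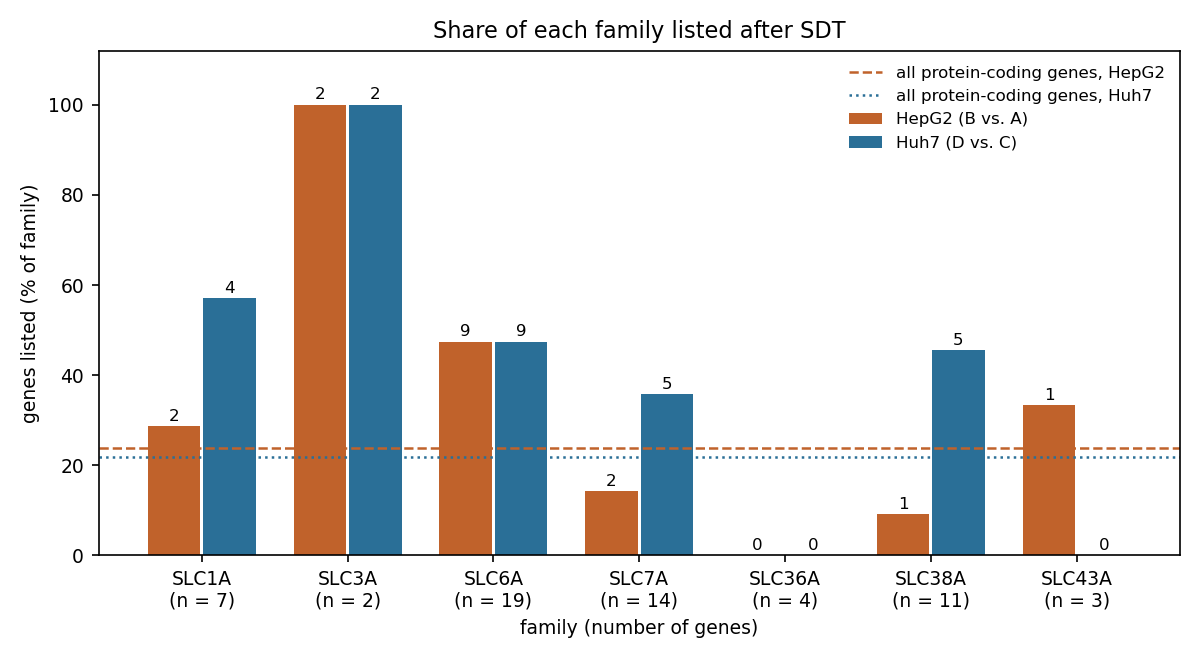
Share of each family listed (bars, % of the family's genes, with the number of listed genes above each bar) in HepG2 and Huh7. The lines mark the shares of all protein-coding genes, 23.9% in HepG2 (dashed) and 21.9% in Huh7 (dotted); SLC1A, SLC3A and SLC6A lie above the line of each comparison, SLC36A is at 0, and SLC7A and SLC38A lie below the line in HepG2 and above it in Huh7.

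SLC6A, the family of sodium- and chloride-coupled carriers, had 9 of 19 genes listed in each line (47.4%), of which 6 were the same. The shares of all protein-coding genes were 23.9% in HepG2 and 21.9% in Huh7. Among the carriers of GABA, taurine, betaine and creatine, SLC6A8 (ENSG00000130821) for creatine, SLC6A12 (ENSG00000111181) for betaine and GABA and SLC6A13 (ENSG00000010379), the GABA and taurine carrier of liver, were listed in both lines. SLC6A6 (ENSG00000131389), the main taurine carrier, was listed only in HepG2, and SLC6A11 (ENSG00000132164), a GABA carrier of glia, only in Huh7. For SLC6A8, 96.1% of the 75-base stretches were unique, and the locus sharing the most was AC133561.1 (2.24%).

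Among the monoamine carriers, SLC6A4 (ENSG00000108576) for serotonin was listed in both lines, SLC6A3 (ENSG00000142319) for dopamine only in HepG2, and SLC6A2 for noradrenaline in neither. In SLC6A2, 16.2% of the 75-base stretches also occur in AC136621.1, which overlaps it on the same strand. The glycine carriers SLC6A5 and SLC6A9 were both in neither. Of the remaining 8 genes, which carry neutral amino acids or proline apart from the orphan SLC6A16, 2 were listed in both lines. They were SLC6A16 (ENSG00000063127) and SLC6A20 (ENSG00000163817), a proline carrier. SLC6A17 (ENSG00000197106), of synaptic vesicles, was listed only in HepG2. SLC6A14 (ENSG00000268104), with a wide range of neutral and cationic substrates, and SLC6A19 (ENSG00000174358), the neutral amino acid carrier of kidney and gut, were listed only in Huh7. SLC6A7, SLC6A15 and SLC6A18 were listed in neither. Several listed members are thus best known from neurons, glia or kidney. Their levels in these lines are not in the tables used here, so it cannot be said how many transcripts lie behind these calls.

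Some of these carriers are known targets of the amino acid response, in which the kinase GCN2 or other stress kinases raise translation of the factor ATF4. ATF4 then binds response elements in its target genes. Of 7 such carriers, 2 were listed in HepG2 (28.6%), SLC3A2 and SLC1A5, and 3 in Huh7 (42.9%), the same pair and SLC7A11. Over all protein-coding genes the shares were 23.9% and 21.9%, so the HepG2 share of these carriers was near the background. Their Huh7 share was near the 41.7% of all 60 members listed in Huh7. SLC7A1, SLC7A5, SLC38A2 and SLC6A9 were listed in neither. Of 10 genes of the response itself, chosen with earlier results of these data known, 8 were listed in each line (80.0%), and these were the same 8. They were ATF4, its partners and relatives ATF3, CEBPB and DDIT3, and its targets ASNS, CHAC1, TRIB3 and SESN2. EIF2AK4, which encodes GCN2, and ATF5 were not listed. The calls have no sign, and whether the response was active was not tested. Of 5 genes that turn cystine into glutathione and use it, GCLM was listed in both lines and GCLC only in Huh7, as SLC7A11 was, while GSS, GSR and GPX4 were in neither.

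The promoters of these carriers were searched for the core of the amino acid response element, TGATGNAA, on both strands. RefSeq windows from 250 bases before to 50 after a start site (GRCh38.p14) were matched for 45 of the 60 members, 67 windows in all, since a gene can have several starts. The core was present in 6 of these windows (8.96%), beside 3.62% of 35116 windows of all genes. The 6 windows belonged to SLC1A5 and SLC3A2, listed in both lines, SLC1A3, listed only in Huh7, and SLC1A4, SLC7A1 and SLC38A1, listed in neither. The core was thus found beside listed and unlisted members alike, 3 of 23 and 3 of 22. A shared set of letters is a description of these windows and no evidence of binding. The antioxidant response element core, TGACNNNGC, was in 7 windows (10.4%), beside 13.3% of all windows, and the genes were SLC1A3, SLC1A5, SLC3A2, SLC7A1, SLC7A5, SLC7A6 and SLC7A7.

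Shown here are the windows of 2 carriers listed in both lines and 2 listed in neither, each 5′ to 3′ on the gene's strand, with the core in capitals. The SLC3A2 window is chr11:62881449-62881748 on the plus strand, with the core on the other strand 37 bases past the start. The SLC1A5 window is chr19:46784765-46785064 on the minus strand, with the core 97 bases before this start, which is 1 of 3 for the gene. The SLC1A4 window is chr2:64989149-64989448 on the plus strand, with the core on the other strand 7 bases before the start. The SLC7A1 window is chr13:29595639-29595938 on the minus strand, with the core 7 bases past the start.
SLC3A2: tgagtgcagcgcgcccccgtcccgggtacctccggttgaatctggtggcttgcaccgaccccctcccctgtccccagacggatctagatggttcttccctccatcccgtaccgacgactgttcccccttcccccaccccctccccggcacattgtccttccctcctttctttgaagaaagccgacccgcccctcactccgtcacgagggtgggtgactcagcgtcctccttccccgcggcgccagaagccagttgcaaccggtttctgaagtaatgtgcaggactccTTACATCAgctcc
SLC1A5: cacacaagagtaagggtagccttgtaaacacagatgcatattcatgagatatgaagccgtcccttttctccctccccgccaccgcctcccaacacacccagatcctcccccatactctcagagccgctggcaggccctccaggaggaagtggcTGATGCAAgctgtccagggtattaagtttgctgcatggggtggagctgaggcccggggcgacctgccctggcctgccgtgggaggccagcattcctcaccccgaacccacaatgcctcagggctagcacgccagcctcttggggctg
SLC1A4: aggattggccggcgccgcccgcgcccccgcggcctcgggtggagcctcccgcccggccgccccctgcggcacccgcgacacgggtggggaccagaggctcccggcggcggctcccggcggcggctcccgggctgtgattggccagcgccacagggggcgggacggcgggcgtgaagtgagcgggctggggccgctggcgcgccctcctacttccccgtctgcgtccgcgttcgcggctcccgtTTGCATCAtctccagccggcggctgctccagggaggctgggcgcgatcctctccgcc
SLC7A1: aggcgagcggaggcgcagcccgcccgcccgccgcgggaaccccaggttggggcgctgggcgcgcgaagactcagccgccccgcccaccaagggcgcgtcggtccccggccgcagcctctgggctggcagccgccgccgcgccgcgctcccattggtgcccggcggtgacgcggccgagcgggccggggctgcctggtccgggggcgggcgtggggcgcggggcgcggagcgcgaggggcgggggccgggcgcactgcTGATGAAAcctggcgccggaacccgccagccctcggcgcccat

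Some amino acid carriers lie outside the 7 prefixes. Of a chosen list of 19 carriers for amino acids or peptides from other families, 7 were listed in HepG2 (36.8%) and 2 in Huh7 (10.5%), beside 23.9% and 21.9% of all protein-coding genes. A wider set, the listed genes under the GO term amino acid transmembrane transporter activity that are no members, numbered 9 in HepG2 and 7 in Huh7. Listed in HepG2 were the vesicular glutamate carriers SLC17A7 and SLC17A8, the peptide carrier SLC15A2 and the mitochondrial carriers SLC25A12 for aspartate and glutamate, SLC25A15 for ornithine and SLC25A29 for basic amino acids. SLC16A10, a facilitator of aromatic amino acids, was listed in both lines, and SLC66A1 (PQLC2 in the annotation), a lysosomal exporter of basic amino acids, only in Huh7.

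All 29 listed members stood under the GO terms transmembrane transport and transmembrane transporter activity, and 26 of them under amino acid transport. The other 3 were SLC6A3, SLC6A4 and SLC6A16. Across all GO terms, 4783 genes were listed in HepG2 and 4369 in Huh7, beside 22148 background genes. Amino acid transport held 49 listed genes in HepG2 and 44 in Huh7 of 158 background genes, 31.0% and 27.8%. Its members numbered 14 in HepG2 and 23 in Huh7, whereas its other genes, not all of them carriers, numbered 35 and 21. The narrower term amino acid transmembrane transporter activity held 22 and 29 of 83 genes, of which 13 and 22 were members. Under the broad term the listed share was therefore lower in Huh7, as was the share of all protein-coding genes (23.9% in HepG2 and 21.9% in Huh7). Its carriers of these families were more numerous in Huh7.

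The glutamate terms show which carriers stand behind such a count. L-glutamate transmembrane transporter activity held 4 listed genes in HepG2 and 5 in Huh7 of 14, 28.6% and 35.7%. Among all protein-coding genes 23.9% and 21.9% were listed, and the term is small. In HepG2 the 4 genes were SLC1A7 and the vesicular and mitochondrial carriers SLC17A7, SLC17A8 and SLC25A12. In Huh7 they were the members SLC1A1, SLC1A3, SLC1A7, SLC7A11 and SLC38A7, with 0 other genes. A similar share of the term thus covered plasma membrane and lysosomal carriers in Huh7 and mostly organelle carriers in HepG2, with SLC1A7 in common. Glutamine transport held 1 of 7 genes in HepG2, SLC1A5, and 3 of 7 in Huh7, namely SLC1A5, SLC38A3 and SLC38A7. Neurotransmitter:sodium symporter activity, the GO term for the SLC6A family, held 9 of 22 genes in HepG2, each a member, and 10 of 22 in Huh7, of which 9 were members.

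**Figure D3:**
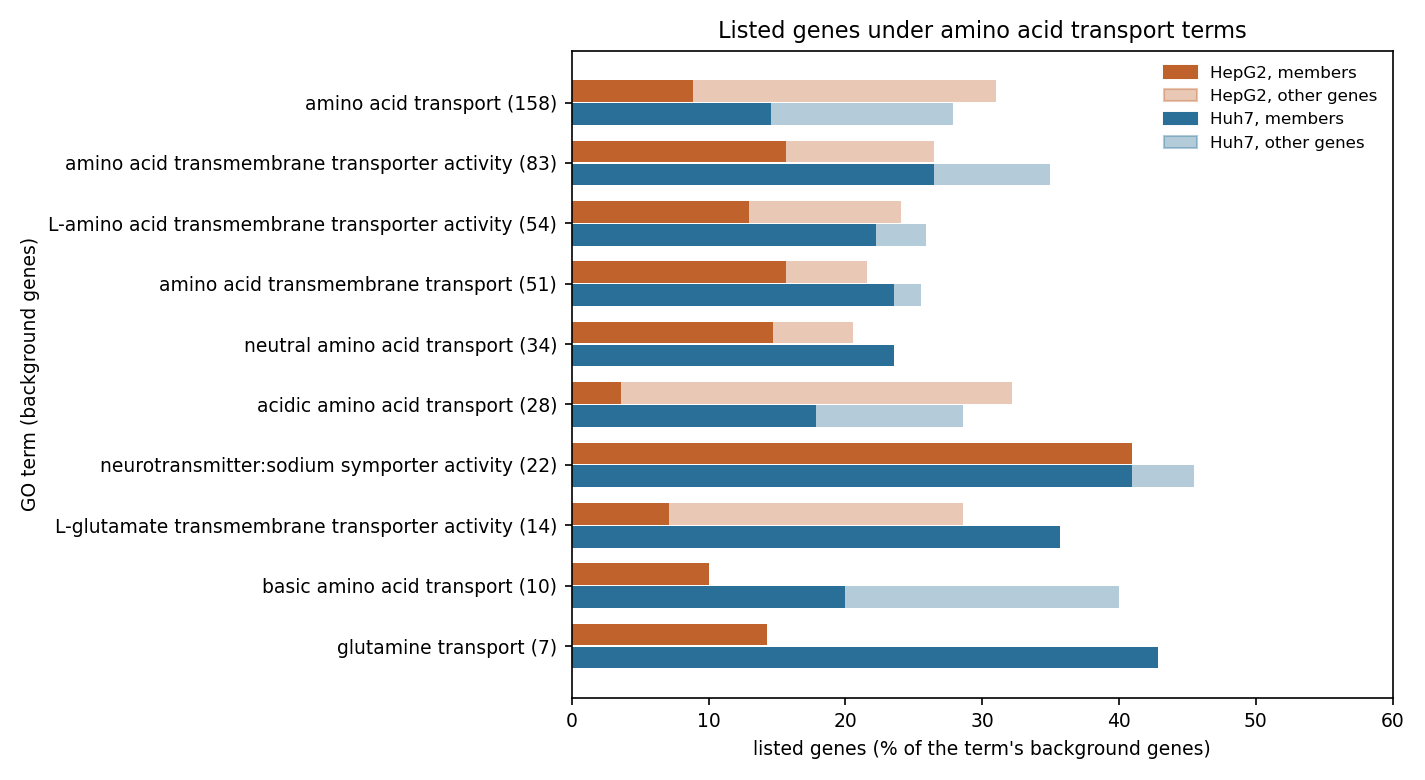
Listed genes under 10 GO terms of amino acid transport, as % of the term's background genes (number in brackets), for HepG2 and Huh7. The dark part of each bar is member genes and the pale part other listed genes; for amino acid transport the dark part is 14 of 49 genes in HepG2 and 23 of 44 in Huh7.

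The KEGG tables, which name genes only where a pathway holds them, listed 9 members in HepG2 and 13 in Huh7, 14 in either. The share of all KEGG genes that were listed was not computed. The shares of all protein-coding genes rest on the GO tables, so the KEGG counts have no background beside them. Protein digestion and absorption, the pathway of intestinal and renal uptake, held the most. It had 42 listed genes in HepG2 and 36 in Huh7 of 89, of which 5 and 7 were members. SLC1A5, SLC3A1, SLC3A2, SLC7A7 and SLC7A9 were common to both lines, and Huh7 added SLC1A1 and SLC6A19. Glutamatergic synapse held 31 listed genes of 116 in each line, with 1 member in HepG2 (SLC1A7) and 4 in Huh7 (SLC1A1, SLC1A3, SLC1A7 and SLC38A3). GABAergic synapse held 22 and 31 of 90, with SLC6A13 in both lines and SLC6A11 and SLC38A3 in Huh7. The other pathways with a member, 8 in number, each held 1. SLC6A3 stood in 5 of them.

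Transcript length was compared because a longer transcript collects more reads at the same level and is more easily called. The longest coding transcript of the members listed in HepG2 had a median of 2989 bases (range 1761 to 6604), against 4216 bases (1308 to 12041) for those not listed. In Huh7 the medians were 3722 bases (1308 to 10103) and 4216 bases (1730 to 12041). The listed members were the shorter ones by median in each line, with wide overlap of the ranges. Over all protein-coding genes the order was the reverse, with medians of 3126 and 2855 bases in HepG2 and 3090.5 and 2885.5 bases in Huh7.

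**Figure D4:**
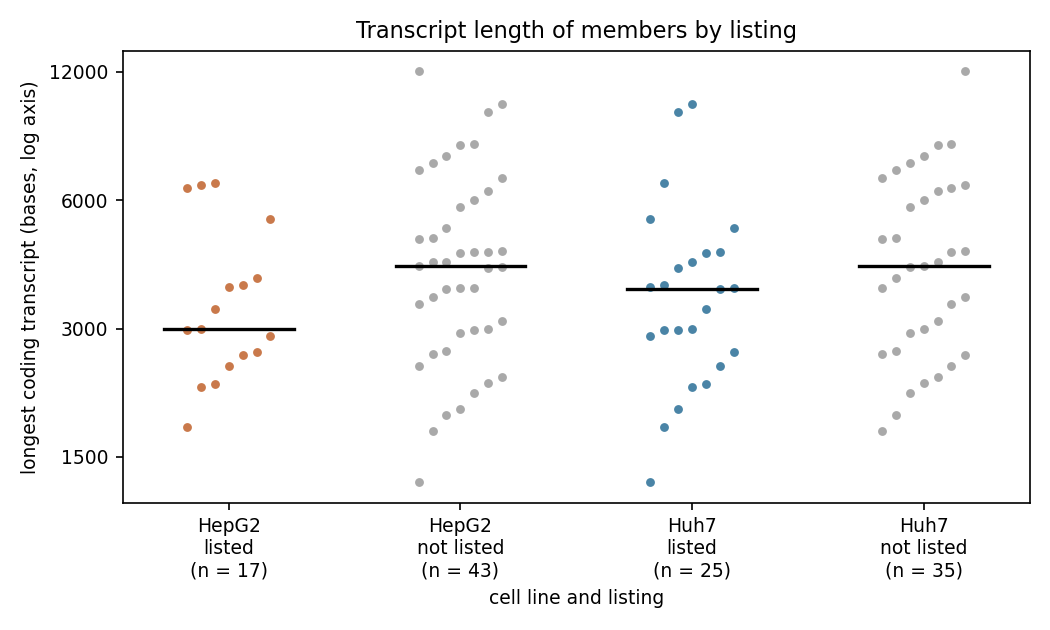
Length of the longest coding transcript (bases, log axis) of each member gene, by cell line and listing. Each point is a gene and each bar the median of its group, 2989 and 4216 bases in HepG2 and 3722 and 4216 bases in Huh7 for listed and unlisted members; the ranges overlap, and the longest gene, at 12041 bases, is unlisted in each line.

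Position in the genome was described in 2 ways. In GENCODE order, 5 pairs of members that are direct neighbours had the same listing as each other in both lines. SLC6A12 and SLC6A13 were the pair listed in both lines. SLC38A1 with SLC38A2, SLC7A6 with SLC7A6OS, SLC36A3 with SLC36A2 and SLC36A2 with SLC36A1 were listed in neither. SLC38A2 with SLC38A4 and SLC6A19 with SLC6A18 are also neighbours and differed. An exon of another gene lay opposite an exon in 13 of the 29 listed members (44.8%) and in 11 of the 31 others (35.5%). The share among all protein-coding genes was not computed, so these counts have no background beside them. Among the listed members, SLC7A11 is overlapped by SLC7A11-AS1. The library kit keeps strand, but whether the counting used it is not given in the sources used here, and its part in the calls was not tested.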

How the data were processed

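The authors removed reads with undetermined bases or low quality, computed FPKM values with Cuffdiff and called differential mRNAs where the adjusted p-value was below 0.05 (the methods name Cuffdiff for the calls, the results edgeR). Per the labels, the processing notes name Bowtie2 (2.2.8), HISAT2, StringTie (1.3.1) and Cuffdiff (2.1.1). Genome build and annotation are not given in the sources used here. The deposited tables, 4 in all, hold for each GO term (GOseq) or KEGG pathway (KOBAS) the number of listed and background genes, the listed identifiers, and p-values, which were not used.

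Each gene list was rebuilt as the union of identifiers over all GO terms, 4783 genes for B vs. A and 4369 for D vs. C, with every row's number equal to its identifiers. Symbols, gene types, transcript lengths and overlaps came from GENCODE release 29 by gene identifier, and 60 of 60 members were also found in a table of current symbols. Uniqueness is the share of 75-base stretches found in no transcript of another gene. The rebuilding was run on a simulated table in which every listed gene stood under a term. That run checked the code only and could not show called genes that lack a GO term. In each comparison the paper reports more differential mRNA genes than the rebuilt list holds. Python (3.11.15) and pandas (2.3.3) were used. No statistical test was made, as each group is 1 library and the tables hold no values. The members and lists were chosen with earlier results of these data known. All members were counted and named, except 1 that is not reported here by name. GO terms and pathways were those on a prepared list or holding the most members, and of the latter GO terms only the narrowest are named.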

Additional observations from a re-analysis of the deposited data

How the results depend on the processing

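Of 7 alternatives, 6 left each of the 4 counts of members within 1.5 times its value, and these were both kinds of table together, biological process terms alone, molecular function terms alone, current symbols, leaving out SLC7A6OS, and leaving out 7 members that are no amino acid carriers by their main known substrate. The last gave 13 of 53 members in HepG2 (24.5%) and 22 of 53 in Huh7 (41.5%). The others of these 6 could not change the listed counts, so they are no check of them. All 29 listed members stand under terms of both kinds, and the KEGG lists held 0 members outside the GO lists. Current symbols matched all 60 members, and SLC7A6OS was listed in neither line. The KEGG tables in place of the GO tables gave 9 members in HepG2, 13 in Huh7 and 8 in both, because they name only genes assigned to a pathway. No paired analysis was possible because each group holds 1 library and the tables give no values per sample. Direction, size and level of each change, and the depth behind each call, were not analysed here.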

Other observations

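A chosen list of genes of amino acid sensing for the kinase complex mTORC1 was listed near the background. Of 19 such genes, 5 were listed in each line (26.3%), beside 23.9% and 21.9% of all protein-coding genes, and 2 of them, RRAGC and FLCN, were listed in both. LAMTOR3, SESN1 and SESN3 were listed only in HepG2, and RRAGD, LAMTOR1 and CASTOR1 only in Huh7. SESN2, counted above with the amino acid response and not among the 19, was listed in both lines.

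Among the 18 SLC families with at least 7 genes, the share listed ran from 9.09% to 77.8% in HepG2 (median 29.3%) and from 16.7% to 58.3% in Huh7 (median 42.2%). SLC38A had the lowest share in HepG2, together with SLC9A, the sodium-proton exchangers, also at 1 of 11, and both were at 5 of 11 in Huh7. SLC6A, at 47.4% in each line, was above both medians. SLC17A, the family of the vesicular glutamate carriers, went the other way, with 7 of 9 genes listed in HepG2 and 2 of 9 in Huh7.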
